A study of Mus musculus with 24 samples.

Results

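The transcripts examined here encode the lysosomal proton pump and the proteases that work in the compartment it acidifies. They were taken by symbol from the deposited expression table. The rule admitted subunits of the vacuolar ATPase (V-ATPase; symbols beginning Atp6v0 or Atp6v1), its accessory proteins (Atp6ap), cathepsins named by a single letter (Ctsa to Ctsz) and the lysosomal membrane glycoproteins Lamp1 and Lamp2. Per symbol, the protein-coding RefSeq entry (NM_) with the highest mean level over the 24 libraries was used. This gave 45 genes among the 20461 symbols with such an entry, namely 9 of the membrane sector V0, 13 of the cytosolic sector V1, 3 accessory proteins, 18 cathepsins and 2 Lamp genes. The rule itself uses symbols and mean levels, not changes, but the set was chosen with earlier results of these data known.

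The libraries came from primary cells of the inguinal white fat of 129SvEv mice, expanded from the stromal vascular fraction. All cells were differentiated with rosiglitazone, which drives them towards brite adipocytes, white fat cells with a thermogenic programme. They received 50 nM of LNA gapmers, antisense oligonucleotides that direct RNase H to a transcript, either against the long noncoding RNA Ctcflos (knockdown, KD) or without a target (nontargeting control, NC). RNA was collected 24 h or 72 h after transfection, which gave 4 groups of 6 libraries, named by oligonucleotide and time (KD 24 h and so on). The comparison of KD with NC at each time asks how loss of Ctcflos changes transcript levels early and later in differentiation. The study calls its transcriptome replicates biological. The labels do not say whether the libraries of a group came from separate cultures or mice, nor which antisense sequence each KD library received, so the p-values describe the spread between these samples.

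The V-ATPase uses ATP hydrolysis in V1 to turn a rotor, which drives protons through V0 into the lumen of lysosomes, endosomes and the Golgi. Cathepsins are made as inactive precursors and become active in the acid lumen, where they degrade proteins delivered by endocytosis and autophagy. Many of the genes belong to a network controlled by the MiT/TFE factors, TFEB among them, and in adipocytes lysosomes also serve lipid droplet turnover and the clearance of mitochondria.

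Depth ranged from 1391830 to 5423840 mapped reads per library, at a median of 3945864. NC 72 h replicates 2 and 3 differed by less than sampling noise and were counted as 1 sample (written 2-3), so NC 72 h had n = 5. By their deviations from the group means, the libraries were divided into 2 clusters, a number set beforehand. The larger cluster held 16 libraries and the smaller cluster 8, among them 2 of every group. Deviations of libraries from different groups correlated at a mean of 0.13 within a cluster and -0.16 between clusters. Results are given within each cluster below. The Ctcflos entry (NR_040321, listed as 1300015D01Rik) measured 0.00 to 0.62 RPKM in KD 24 h and 0.18 to 1.38 in NC 24 h, with overlap, and 0.00 to 0.52 in KD 72 h against 0.85 to 1.75 in NC 72 h, without overlap. Of 5 brite adipocyte markers, 4 were called lower in KD at 24 h and 5 at 72 h. Of 8 general adipocyte markers 4 were called lower at each time and none higher. Over all genes with a coding entry, 11.6% were called higher and 12.5% lower at 24 h, and 11.1% and 12.5% at 72 h. The paper describes general adipogenesis as little changed by the knockdown. Among preadipocyte and fibroblast markers none of 8 was called at 24 h, and of 7 tested at 72 h 2 were higher and 1 lower. A single mesothelial marker, Krt19, was tested and was higher at both times. The others on that list were near 0, with Upk3b at 0 in every sample and Msln and Lrrn4 at most 1.92 and 0.11 scaled RPKM. No endothelial marker could be tested, and of the osteoclast markers Acp5 alone was tested. In bulk RNA of this kind, fewer cells of a type and less RNA per cell cannot be told apart.

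Levels are given as RPKM after scaling between samples (scaled RPKM). Since reads came from the 3′ ends while RPKM divides by transcript length, RPKM understates long transcripts when genes are compared. On this per-length scale the aspartic protease Ctsd led, at a mean level of 663.0 scaled RPKM over the samples. It was followed by the small V0 subunit Atp6v0e at 561.5 and the cysteine protease Ctsb at 395.7. The V1 rotor subunit Atp6v1f measured 270.9, the stalk subunit Atp6v1e1 194.9, the V0 ring subunit Atp6v0b 175.7 and Lamp2 129.8. The a subunits of V0 were listed far lower, Atp6v0a1 at 3.06 and Atp6v0a2 at 3.40. Neighbouring genes in this order overlapped between samples. Ctsd ranged from 405.1 to 912.1 and Atp6v0e from 290.3 to 676.0.

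Isoforms known from other tissues were at or near 0. Of the 45 genes, 29 passed the filter on low values in at least 1 comparison and 16 in none. Of these 16, 8 had no read in any sample, namely Atp6v1b1, Atp6v1e2 and Atp6v1g3 of V1, the granule protease Ctsg, and Ctsj, Ctsm, Ctsq and Ctsr. The other 8 averaged under 1 scaled RPKM. Among them were Atp6v0d2, an isoform of osteoclasts and macrophages (highest sample 0.27), the kidney-type Atp6v0a4 (highest 0.13) and Atp6v1c2 (highest 0.93). The remaining ones, Atp6v1g2, Atp6ap1l, Ctse and Ctsw, reached at most 0.78, 0.22, 0.25 and 0.58.

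The last of the 16 was Atp6v0c, which encodes the proteolipid that forms most of the membrane ring. Its coding entry NM_009729 averaged 0.43 scaled RPKM, with 2.0 reads per library. The table gave the same symbol to NR_037854, which RefSeq assigns to the transcribed pseudogene Atp6v0c-ps2. That entry measured 57.1 ± 7.5 (SD, n = 6 libraries) scaled RPKM in KD 24 h and 40.3 ± 1.6 in NC 24 h, and 47.1 ± 2.1 in KD 72 h against 39.8 ± 4.6 over the 6 libraries of NC 72 h. Near-identical copies can share or lose reads in counting, so neither value is a level of Atp6v0c.

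At 24 h 7 of the 29 tested genes changed, 5 lower and 2 higher in KD, and at 72 h 13 of 28 changed, 6 lower and 7 higher. A change means an adjusted p under 0.05 in limma with Benjamini-Hochberg correction over every entry tested, which holds for all adjusted p-values given here. Across all genes with a protein-coding RefSeq entry, 24.1% were called at 24 h and 23.6% at 72 h, and of all overlapping entries 22.7% and 22.5%. The members' shares were 24.1% and 46.4%, so the share at 24 h was that of the background. By direction the background was 11.6% higher and 12.5% lower at 24 h, and 11.1% higher and 12.5% lower at 72 h. The median log2 fold change of the tested members was -0.18 at 24 h and 0.07 at 72 h, against -0.01 and 0.01 over all entries. The scaling matters at 72 h, where it shifts the log2 fold changes of all entries by 0.245. On the deposited RPKM without scaling, 14 members were called at 72 h, 12 higher and 2 lower, and 9 at 24 h, 4 higher and 5 lower. On that scale the background was 31.3% at 72 h, 25.4% higher and 5.88% lower, and 23.7% at 24 h, 12.6% higher and 11.1% lower, so at 72 h rises also outnumbered falls over the whole table.

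**Figure D1:**
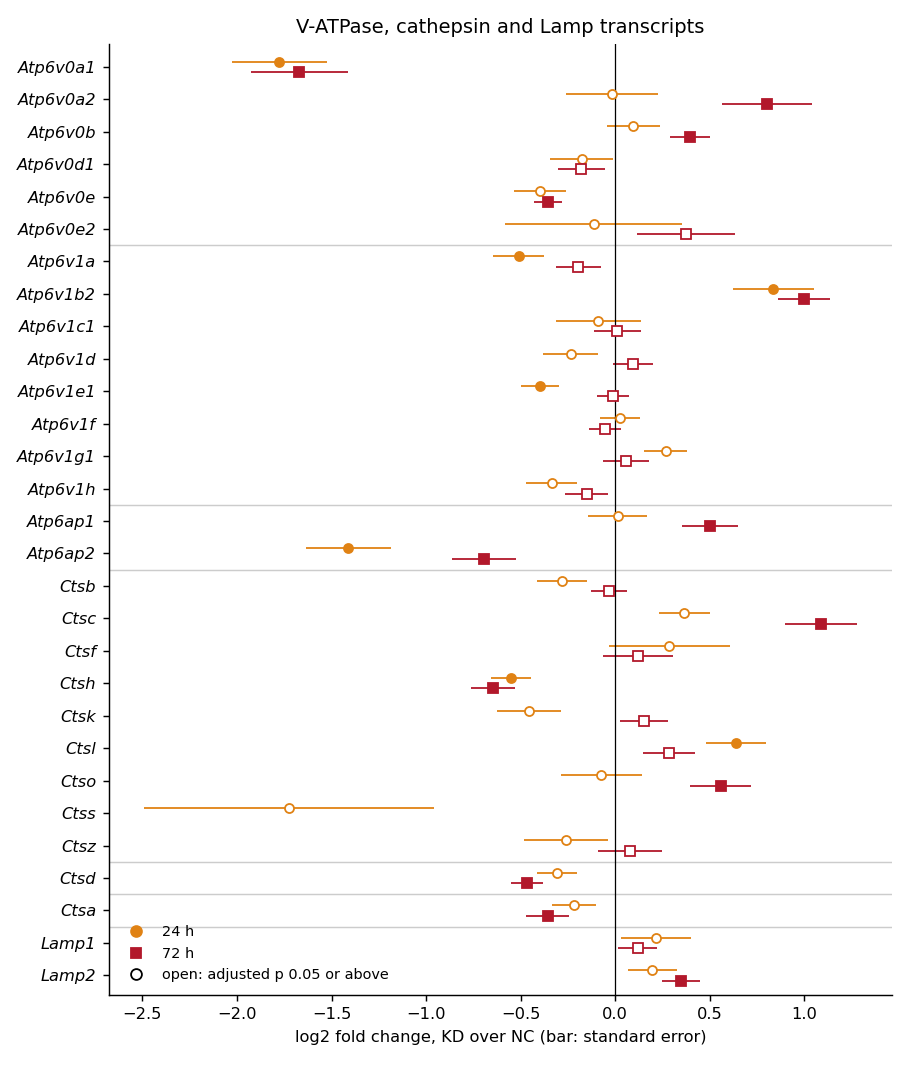
Log2 fold change of KD over NC for the 29 tested members at 24 h (orange circles) and 72 h (red squares), with standard errors. Rows are grouped, from the top, as V0, V1, accessory proteins, cysteine, aspartic and serine cathepsins and Lamp genes. Filled symbols passed adjusted p 0.05. Atp6v0a1, Atp6ap2 and Ctsh lie to the left at both times and Atp6v1b2 to the right, and no value is shown for Ctss at 72 h, where it was not tested.

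The largest change within V0 concerned its a subunit, the membrane subunit that forms the path of the protons and that exists in isoforms of different location. Atp6v0a1, the a1 isoform, ranged from 0.74 to 2.07 scaled RPKM in KD 24 h (median 1.60) and from 3.90 to 6.55 in NC 24 h (median 4.93). The groups did not overlap, and its level fell by 1.78 ± 0.25 (SE) on the log2 scale (adjusted p = 0.00046). In KD 72 h it ranged from 0.84 to 2.37 (median 1.38), and NC replicates 1, 2-3, 4, 5 and 6 measured 5.27, 4.57, 4.74, 4.68 and 3.32. Again every KD sample lay under every NC sample, with a fall of 1.67 ± 0.26 (adjusted p = 0.00051). The other 3 coding RefSeq entries of Atp6v0a1, which share its reads, fell by 1.78 to 1.92 at 24 h and by 1.66 to 1.67 at 72 h.

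The a2 isoform Atp6v0a2, known from the Golgi and endosomes, was not called at 24 h and rose at 72 h. At 24 h it ranged from 2.70 to 4.42 scaled RPKM in KD (median 3.15) and from 1.83 to 4.94 in NC (median 3.31), a log2 fold change of -0.02 ± 0.24 (adjusted p = 0.97). In KD 72 h it ranged from 3.54 to 5.31 (median 4.10), while NC replicates 1, 2-3, 4, 5 and 6 measured 1.56, 2.19, 1.83, 2.71 and 4.12. Only NC replicate 6 lay within the KD range, and Atp6v0a2 rose by 0.80 ± 0.24 (adjusted p = 0.026). The call was lost without NC 72 h replicate 1, 2-3 or 4 (adjusted p from 0.055 to 0.067). The table lists NM_011596 in a pair of rows, and the lower of them, 1.18 ± 0.63 (SD, n = 6) in KD 72 h and 1.46 ± 0.58 (n = 5) in NC 72 h, did not pass the filter.

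Tcirg1, the a3 isoform of lysosomes and of the osteoclast border, does not carry the Atp6v0 symbol and was read with the other lysosomal genes. It ranged from 5.67 to 15.5 scaled RPKM in KD 24 h (median 12.9) and from 4.96 to 7.20 in NC 24 h (median 5.58), and rose by 0.94 ± 0.24 (adjusted p = 0.013). At 72 h KD ranged from 2.92 to 4.71 (median 3.79), and NC replicates 1, 2-3, 4, 5 and 6 measured 2.61, 2.42, 2.57, 1.32 and 3.24. It rose by 0.69 ± 0.23 (adjusted p = 0.043), with 1 KD sample within the NC range. That call was lost on leaving out any of 9 libraries, KD 72 h replicates 1, 3, 4, 5 or 6 or NC 72 h replicates 1, 2-3, 4 or 5 (adjusted p from 0.054 to 0.0999).

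Summed over a1, a2 and a3 the level was 16.6 ± 4.0 (SD, n = 6) scaled RPKM in KD 24 h and 14.5 ± 2.4 (n = 6) in NC 24 h, and 9.49 ± 1.09 (n = 6) in KD 72 h and 9.43 ± 0.75 (n = 5) in NC 72 h. Of this sum a1 made up 5.09% to 15.8% in KD 24 h against 32.6% to 38.6% in NC 24 h. At 72 h its part was 9.82% to 24.2% in KD and 31.1% to 55.8% in NC. On this scale the part of a1 was thus lower in every KD sample than in every NC sample of its time, with no test made of this share, while the sums overlapped. From the steps of the values, lengths of 3990 bases were recovered for the Atp6v0a1 entry and 1890 bases for the Atp6v0a2 entry. Recovered lengths were checked for Ensembl entries only, and the Atp6v0a2 entry is listed in a pair of rows with different values. Since RPKM understates long transcripts here, Atp6v0a1 would weigh less than Atp6v0a2 if these lengths hold. The sums and percentages are therefore not amounts or shares of transcripts.

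**Figure D2:**
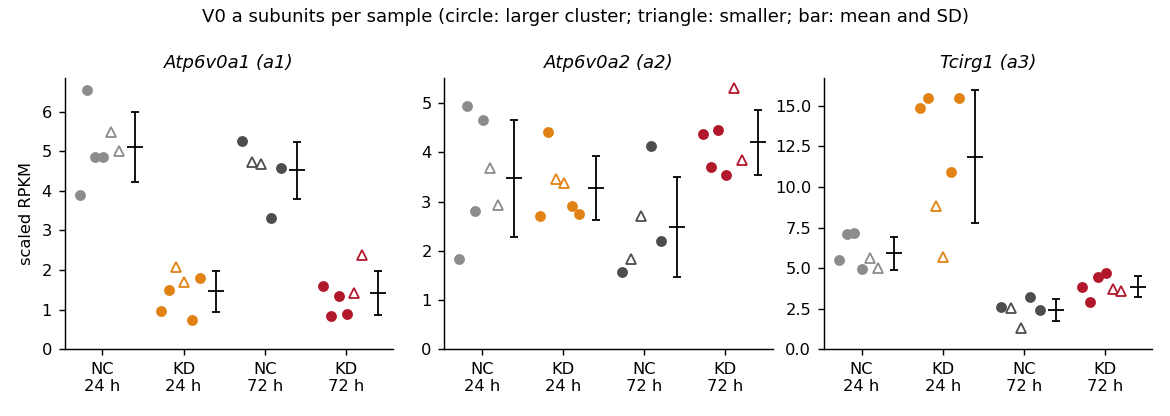
Level of the V0 a subunits in every sample, in scaled RPKM from 0, by group. Circles are libraries of the larger cluster, open triangles those of the smaller cluster, and bars show mean and SD. Atp6v0a1 is lower in every KD sample than in every NC sample at both times, whereas Tcirg1 reaches its highest values in KD 24 h.

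The remaining V0 subunits had log2 fold changes between -0.40 and 0.40. Atp6v0b, a proteolipid of the ring, ranged from 131.4 to 248.7 scaled RPKM in KD 24 h (median 173.4) and from 148.4 to 194.5 in NC 24 h (median 167.4), with a log2 fold change of 0.10 ± 0.14 (adjusted p = 0.65). KD 72 h ranged from 168.5 to 224.2 (median 202.1), above the 159, 156, 132, 133 and 168 of NC replicates 1, 2-3, 4, 5 and 6. All KD samples lay above all NC samples, the nearest by under 1 scaled RPKM, and Atp6v0b rose by 0.40 ± 0.11 (adjusted p = 0.017).

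Atp6v0e, a small membrane subunit, ranged from 290.3 to 569.0 in KD 24 h (median 527.4) and from 593.9 to 676.0 in NC 24 h (median 636.2). The groups did not overlap, but the log2 fold change of -0.40 ± 0.14 did not pass the threshold (adjusted p = 0.052). At 72 h KD ranged from 466.0 to 529.6 (median 503.0), and NC replicates 1, 2-3, 4, 5 and 6 measured 603, 636, 641, 639 and 674. Here Atp6v0e fell by 0.36 ± 0.07 (adjusted p = 0.0038), while on the deposited scale the value was -0.10 (adjusted p = 0.33). Atp6v0d1, which joins the ring to the central stalk, was not called at 24 h (-0.18 ± 0.17, adjusted p = 0.46) or 72 h (-0.18 ± 0.13, adjusted p = 0.33). Its mean levels were 27.8 ± 8.6 (SD, n = 6) scaled RPKM in KD 24 h and 30.7 ± 1.4 (n = 6) in NC 24 h, and 26.0 ± 3.6 (n = 6) in KD 72 h and 29.4 ± 4.0 (n = 5) in NC 72 h. Atp6v0e2, with 17.4 reads per library, was not called either (-0.11 ± 0.47 and 0.37 ± 0.26).

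In V1 the catalytic and the regulatory nucleotide-binding subunits went in opposite directions at 24 h. Atp6v1a, the catalytic A subunit that hydrolyses ATP, ranged from 14.2 to 24.3 scaled RPKM in KD 24 h (median 21.8) and from 28.3 to 31.2 in NC 24 h (median 29.6). The groups did not overlap, and Atp6v1a fell by 0.51 ± 0.13 (adjusted p = 0.015). KD 72 h ranged from 21.9 to 35.8 (median 26.2) and NC replicates 1, 2-3, 4, 5 and 6 measured 32.0, 31.0, 32.2, 30.32 and 29.8. Of the KD samples 5 lay under every NC sample and 1 above, and the log2 fold change was -0.19 ± 0.12 (adjusted p = 0.27), turning to 0.06 on the deposited scale.

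Atp6v1b2, the B subunit that sits beside A in the head, ranged from 19.0 to 53.1 in KD 24 h (median 32.5) and from 16.03 to 20.1 in NC 24 h (median 16.4). In 4 of 6 KD samples it exceeded every NC sample, and it rose by 0.84 ± 0.21 (adjusted p = 0.013). The KD 72 h samples lay between 22.3 and 26.2 (median 25.1), above the 12.9, 8.84, 13.5, 15.4 and 12.03 of NC replicates 1, 2-3, 4, 5 and 6. The groups no longer overlapped, and the rise of 1.00 ± 0.14 (adjusted p = 0.00023) corresponded to 2.00-fold. On the deposited scale the values were 0.89 and 1.25, both called.

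Atp6v1e1, part of the stalk that holds the head still, ranged from 133.3 to 194.0 in KD 24 h (median 165.7) and from 213.0 to 233.2 in NC 24 h (median 220.7). It fell by 0.40 ± 0.10 (adjusted p = 0.012) with no overlap. At 72 h its log2 fold change was -0.01 ± 0.09 (adjusted p = 0.94), with overlapping groups, and 0.24 (adjusted p = 0.093) on the deposited scale. The remaining 5 tested V1 subunits were not called at either time. They included Atp6v1h, which couples hydrolysis to transport (-0.34 ± 0.13, adjusted p = 0.082, and -0.15 ± 0.11, adjusted p = 0.37), and Atp6v1c1, Atp6v1d, Atp6v1f and Atp6v1g1, whose log2 fold changes lay between -0.24 and 0.27 at 24 h and between -0.05 and 0.09 at 72 h. Atp6v1h averaged 49.9 ± 9.7 (SD, n = 6) scaled RPKM in KD 24 h and 62.7 ± 5.4 (n = 6) in NC 24 h, and 47.3 ± 5.5 (n = 6) in KD 72 h and 52.5 ± 6.5 (n = 5) in NC 72 h. In all, 3 of 8 tested V1 genes changed at 24 h and 1 of 8 at 72 h, and of 6 tested V0 genes 1 and 4, beside 24.1% and 23.6% of all genes. The difference between the sectors was not tested.

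The accessory proteins help the pump to assemble and to reach its membranes, and Atp6ap2 is also known as the prorenin receptor. Atp6ap2 ranged from 4.11 to 10.2 scaled RPKM in KD 24 h (median 6.23) and from 15.5 to 23.3 in NC 24 h (median 16.4). The groups stood well apart, and it fell by 1.41 ± 0.22 (adjusted p = 0.00098), to 37.6% of the control on the scale of the fit. At 72 h KD ranged from 7.84 to 13.4 (median 9.12), and NC replicates 1, 2-3, 4, 5 and 6 measured 16.2, 15.9, 18.8, 15.9 and 12.4. With 1 KD sample above the lowest NC sample, it fell by 0.69 ± 0.17 (adjusted p = 0.0096), while on the deposited scale the value was -0.44 (adjusted p = 0.096).

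Atp6ap1, known as Ac45, showed no such fall. It ranged from 11.6 to 20.8 in KD 24 h (median 16.2) and from 14.5 to 18.5 in NC 24 h (median 15.1), a log2 fold change of 0.01 ± 0.16 (adjusted p = 0.96). KD 72 h ranged from 13.98 to 22.5 (median 20.54), against 13.8, 17.1, 12.2, 12.1 and 12.7 in NC replicates 1, 2-3, 4, 5 and 6. In 4 of 6 KD samples the level exceeded every NC sample, and Atp6ap1 rose by 0.50 ± 0.15 (adjusted p = 0.027). This call was lost without any of KD 72 h replicates 1 to 4 or NC 72 h replicates 4, 5 or 6 (adjusted p from 0.052 to 0.062).

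**Figure D3:**
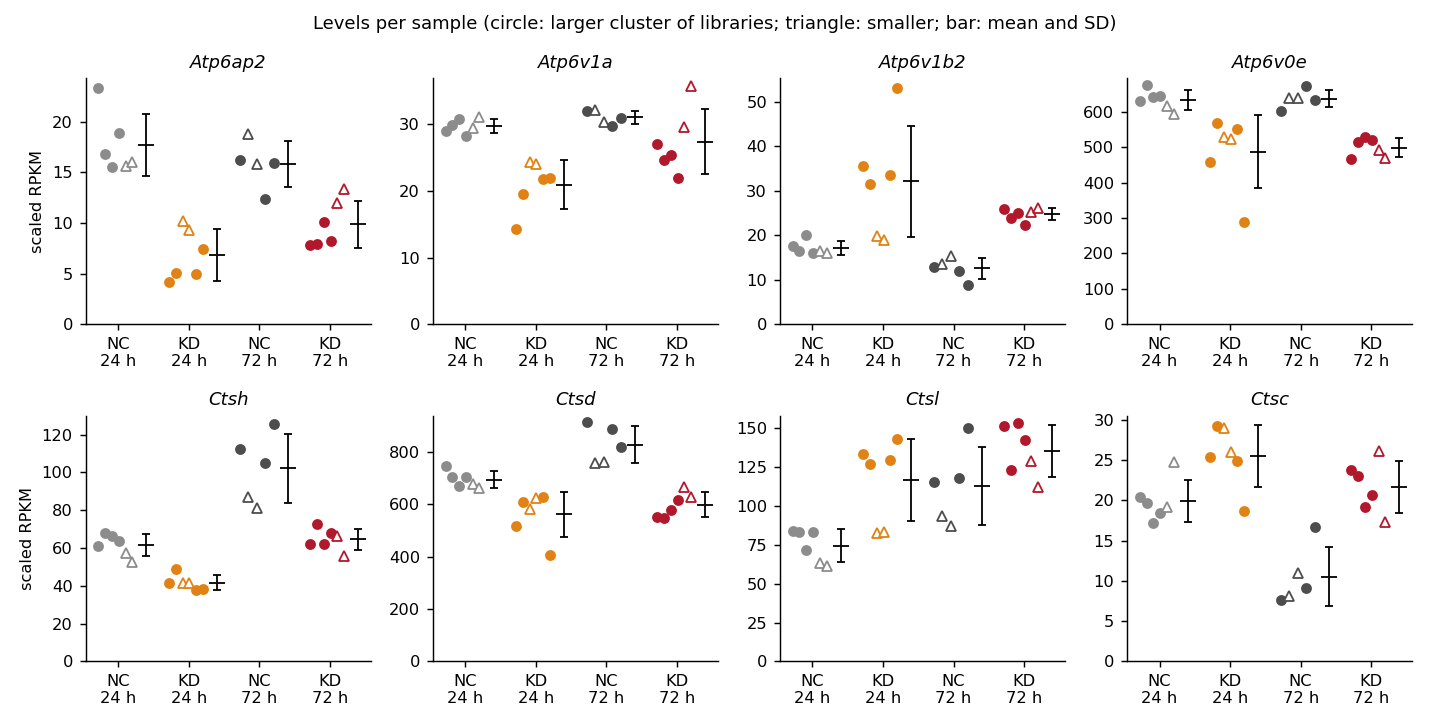
Level of 8 members in every sample, in scaled RPKM from 0, by group. Circles are libraries of the larger cluster, open triangles those of the smaller cluster, and bars show mean and SD. Atp6ap2, Atp6v1a, Atp6v0e, Ctsh and Ctsd are lower in KD 24 h than in NC 24 h in every sample, and Ctsc in NC 72 h lies under its level in the other groups.

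Cathepsins changed in both directions. Of 11 tested at 24 h, 1 fell and 1 rose, and of 10 tested at 72 h, 3 fell and 2 rose. These are 18.2% and 50.0%, beside 24.1% and 23.6% of all genes, so the share at 24 h lay under the background. Ctsh, a cysteine protease with aminopeptidase activity, fell at both times. It ranged from 37.7 to 48.8 scaled RPKM in KD 24 h (median 41.5) and from 52.7 to 67.9 in NC 24 h (median 62.5), a fall of 0.55 ± 0.10 (adjusted p = 0.0028). KD 72 h ranged from 55.8 to 72.6 (median 64.2), and NC replicates 1, 2-3, 4, 5 and 6 measured 112, 126, 86.9, 81.2 and 105. The groups were separate at both times, the fall at 72 h was 0.65 ± 0.12 (adjusted p = 0.0016), and the call held on the deposited scale (-0.40, adjusted p = 0.017).

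Ctsd, the main aspartic protease of lysosomes, ranged from 405.1 to 628.3 in KD 24 h (median 595.2) and from 660.1 to 747.2 in NC 24 h (median 689.1). Without overlap between the groups, the log2 fold change of -0.31 ± 0.11 stayed above the threshold (adjusted p = 0.051). At 72 h KD ranged from 546.6 to 664.9 (median 597.5) and NC replicates 1, 2-3, 4, 5 and 6 measured 912, 819, 759, 762 and 886. All KD samples were lower, and Ctsd fell by 0.47 ± 0.09 (adjusted p = 0.0015), while the deposited scale gave -0.22 (adjusted p = 0.12).

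Ctsa, a serine carboxypeptidase that also protects the sialidase Neu1 and the galactosidase Glb1, was not called at 24 h (-0.22 ± 0.12, adjusted p = 0.19). At 72 h it ranged from 57.0 to 81.1 in KD (median 61.0), with 90.4, 87.0, 77.5, 69.7 and 89.9 in NC replicates 1, 2-3, 4, 5 and 6. In 4 of 6 KD samples it lay under every NC sample, and it fell by 0.36 ± 0.11 (adjusted p = 0.037). The call was lost without any of KD 72 h replicates 1 to 4 or NC 72 h replicates 1, 2-3 or 6 (adjusted p from 0.067 to 0.084), and on the deposited scale (-0.11, adjusted p = 0.58).

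Ctsc, the dipeptidyl peptidase that activates granule proteases, ranged from 18.7 to 29.3 in KD 24 h (median 25.7) and from 17.2 to 24.8 in NC 24 h (median 19.4), with a log2 fold change of 0.36 ± 0.14 (adjusted p = 0.064). KD 72 h ranged from 17.4 to 26.1 (median 21.9), above the 7.61, 16.7, 8.18, 11.0 and 9.10 of NC replicates 1, 2-3, 4, 5 and 6. Ctsc rose by 1.09 ± 0.19 (adjusted p = 0.0011), to 2.13-fold. Ctso, a cysteine protease of low level, ranged from 4.39 to 6.44 in KD 72 h (median 5.37), above the 3.21, 3.55, 4.01, 4.06 and 3.47 of the same NC samples. It rose by 0.56 ± 0.16 at 72 h (adjusted p = 0.024), a call lost without KD 72 h replicate 1 or NC 72 h replicate 1 (adjusted p = 0.054 and 0.055), and measured -0.07 ± 0.21 at 24 h.

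Ctsl, a broad cysteine endopeptidase, ranged from 83.0 to 143.4 in KD 24 h (median 128.4) and from 61.2 to 83.9 in NC 24 h (median 77.5). In 4 of 6 KD samples it exceeded every NC sample, and it rose by 0.64 ± 0.16 (adjusted p = 0.011). At 72 h the value was 0.28 ± 0.14 (adjusted p = 0.16), with KD from 112.3 to 153.5 within and above the 116, 150, 93.3, 87.0 and 118 of the NC samples. On the deposited scale Ctsl was called at 72 h (0.53, adjusted p = 0.0064).

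The abundant Ctsb was not called at 24 h (-0.28 ± 0.13, adjusted p = 0.14) or 72 h (-0.03 ± 0.10, adjusted p = 0.85). It averaged 336.3 ± 61.9 (SD, n = 6) scaled RPKM in KD 24 h and 407.9 ± 47.1 (n = 6) in NC 24 h, and 416.7 ± 36.8 (n = 6) in KD 72 h and 427.2 ± 48.6 (n = 5) in NC 72 h. Ctsk, known for the breakdown of collagen, measured 12.1 ± 2.4 (SD, n = 6) in KD 24 h and 16.7 ± 3.3 (n = 6) in NC 24 h (log2 fold change -0.46 ± 0.17, SE, adjusted p = 0.066), and 26.7 ± 3.8 (n = 6) in KD 72 h against 24.1 ± 3.5 (n = 5) in NC 72 h (0.15 ± 0.13, adjusted p = 0.43). Ctsz, a carboxypeptidase, and Ctsf were not called at either time either, with log2 fold changes of -0.26 ± 0.22 and 0.29 ± 0.32 at 24 h and 0.08 ± 0.17 and 0.12 ± 0.18 at 72 h. The level of Ctsz was 33.8 ± 11.5 (SD, n = 6) in KD 24 h and 39.9 ± 9.7 (n = 6) in NC 24 h, and 55.8 ± 8.0 (n = 6) in KD 72 h and 54.0 ± 14.3 (n = 5) in NC 72 h.

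Lamp1 and Lamp2 are the heavily glycosylated proteins that line the lysosomal membrane. Lamp1 was not called at 24 h (0.22 ± 0.18, adjusted p = 0.41) or 72 h (0.12 ± 0.10, adjusted p = 0.44). Lamp1 averaged 63.0 ± 19.3 (SD, n = 6) scaled RPKM in KD 24 h and 53.0 ± 6.6 (n = 6) in NC 24 h, and 65.7 ± 5.6 (n = 6) in KD 72 h and 60.7 ± 7.4 (n = 5) in NC 72 h. Lamp2, read from NM_001017959, was not called at 24 h (0.20 ± 0.13, adjusted p = 0.29). At 72 h it ranged from 147.0 to 193.6 in KD (median 172.7), with 137, 149, 131, 114 and 138 in NC replicates 1, 2-3, 4, 5 and 6. In 5 of 6 KD samples it exceeded every NC sample, and it rose by 0.35 ± 0.10 (adjusted p = 0.024), a call lost without KD 72 h replicate 3 or 4 or NC 72 h replicate 5 (adjusted p from 0.052 to 0.065). Its other tested coding entry, the splice variant NM_010685, measured -0.34 ± 0.12 (adjusted p = 0.059) at 24 h and -0.19 ± 0.10 (adjusted p = 0.19) at 72 h, at 44.8 ± 2.2 (SD, n = 6) scaled RPKM in KD 72 h and 51.7 ± 7.3 (n = 5) in NC 72 h. The 2 entries thus differed in sign at both times, and the difference between them was not tested.

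Ctss, a cysteine protease of antigen-presenting cells, was among the sparsest members that were tested, at 18.4 reads per library. It ranged from 0.00 to 5.13 scaled RPKM in KD 24 h (median 1.14) and from 1.40 to 12.8 in NC 24 h (median 3.46), with 69 and 155 reads in sum, a log2 fold change of -1.72 ± 0.76 (adjusted p = 0.11). At 72 h it was left out of the fit by the filter. KD ranged from 0.00 to 1.33 (median 0.42), and NC replicates 1, 2-3, 4, 5 and 6 measured 4.35, 1.85, 13.5, 14.6 and 1.87, which is 20 against 198 reads. All KD samples lay under all NC samples, and their mean was 7.64% of that of NC. This is given as a description, without a test. Within the clusters at 72 h, NC measured 1.85 to 4.35 against 0.00 to 0.84 in KD in the larger and 13.5 and 14.6 against 1.14 and 1.33 in the smaller.

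Macrophage markers were also lower in sum in KD 72 h. The summed level of the 14 markers that had an entry ranged from 12.4 to 16.7 scaled RPKM in KD 72 h and from 17.6 to 68.8 in NC 72 h. At 24 h it ranged from 9.35 to 43.1 in KD and from 12.4 to 66.9 in NC. Of the 14, none was at 0 in every sample and 5 could be tested. Of these, 1 was higher in KD at 24 h and, at 72 h, 1 was higher and 2 lower. Over all genes with a coding entry 24.1% were called at 24 h and 23.6% at 72 h. The list did not move as a whole. Csf1r averaged 3.42 ± 1.10 (SD) in KD 24 h against 1.41 ± 0.45 in NC 24 h, and 6.20 ± 1.99 in KD 72 h against 2.47 ± 0.39 in NC 72 h. The means of Cd68 and Mpeg1 were also higher in KD at both times. Lyz2 averaged 1.19 ± 1.38 in KD 72 h against 13.6 ± 9.2 in NC 72 h, and Fcer1g 1.10 ± 1.43 against 9.60 ± 7.60. The defining markers Ptprc, Mrc1 and Aif1 reached at most 0.34, 0.21 and 1.99 in any sample. The highest sums, like the highest Ctss values, were found in libraries of the smaller cluster. The part of these cells in the Ctss result was not tested.

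**Figure D4:**
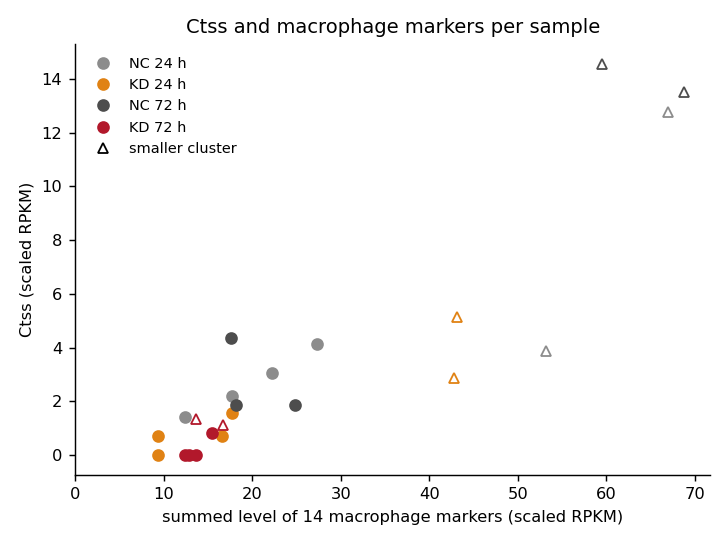
Level of Ctss against the summed level of 14 macrophage markers, both in scaled RPKM, with 1 point per sample. Colours are groups and open triangles are libraries of the smaller cluster. The 6 KD 72 h samples lie at the lower left, with Ctss at 0.00 to 1.33, and the highest Ctss values belong to triangles of NC 24 h and NC 72 h.

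Promoters were searched because many lysosomal genes carry the palindrome bound by MiT/TFE factors, an E-box extended at both ends. RefSeq windows of 300 bases (250 before to 50 after a start site, GRCm38.p6) were at hand for 34 of the 45 members. The core CACGTG, which reads alike on both strands, was found in 9 of these 34, or 26.5%, against 8.91% of 17492 protein-coding symbols. The longer palindrome TCACGTGA, which contains the core, was found in 5 members, or 14.7%, against 1.41%. Among 74 other lysosomal genes the shares were 27.0% and 9.46%. Ctsa carries another TCACGTGA, its core at base 6 after the start site, and Ctsd a further CACGTG at -245. A single site of each of the 5 is shown 5′ to 3′ on the gene's strand, with the palindrome in capitals, because their genes can be set beside the changes above. The stretch of Ctsa ends within its other palindrome.
Atp6v0d1 (chr8:105566050-105566079, minus strand): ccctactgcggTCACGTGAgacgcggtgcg
Atp6v0e (chr17:26676387-26676416, plus strand): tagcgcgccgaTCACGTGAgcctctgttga
Atp6v1a (chr16:44139373-44139402, minus strand): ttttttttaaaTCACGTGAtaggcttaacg
Ctsa (chr2:164833749-164833778, plus strand): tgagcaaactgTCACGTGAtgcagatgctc
Ctsd (chr7:142387908-142387937, minus strand): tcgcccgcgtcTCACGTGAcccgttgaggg

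All 5 genes with the longer palindrome had a log2 fold change below 0 at 24 h and at 72 h. The call was passed by Atp6v1a at 24 h and by Atp6v0e, Ctsa and Ctsd at 72 h. The 4 members with the core alone, Atp6v0b, Ctsf, Ctsl and Lamp1, had values above 0 at both times, of which Ctsl was called at 24 h and Atp6v0b at 72 h. This division was seen after the values were known and was not tested. On the deposited scale at 72 h, 2 of the 5 were above 0 and none of them was called. Among the other lysosomal genes, 3 of 7 with the longer palindrome lay below 0 at 24 h and 1 of 7 at 72 h, when Gla was called higher (0.81 ± 0.14, adjusted p = 0.0012). Of their 12 genes with the core alone, 6 lay above 0 at 24 h and 5 at 72 h, so the division of the members was not seen there. Of the members with neither motif, 9 of 13 lay below 0 at 24 h, 3 of them called, and 4 of 12 at 72 h.

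Within the 2 clusters of libraries the called members were read again as a description, since the same libraries had chosen them. At 24 h 8 of 28 tested members were called in the larger cluster (4 against 4 samples), 1 of 29 in the smaller (2 against 2) and 11 of 29 with the cluster as a term in the fit. The background shares were 26.7%, 2.61% and 29.1%. Atp6ap2 measured -1.79 among the libraries of the larger cluster and -0.69 among those of the smaller, and Atp6v1b2 1.10 and 0.27. Atp6v0a1 measured -1.97 and -1.42, and Ctsl 0.73 and 0.43. Among the calls of 72 h, Ctsa differed in sign between the clusters, at -0.59 and 0.06. Atp6v1b2 measured 1.13 and 0.83 at 72 h, Ctsc 1.04 and 1.16, and Atp6v0a1 -1.83 and -1.32. The differences between the clusters were not tested. Without KD 24 h replicate 6, the shallowest library, 13 members were called at 24 h instead of 7. The share over all genes in that fit is not given here, so this count is not read as a result about the members.

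**Figure D5:**
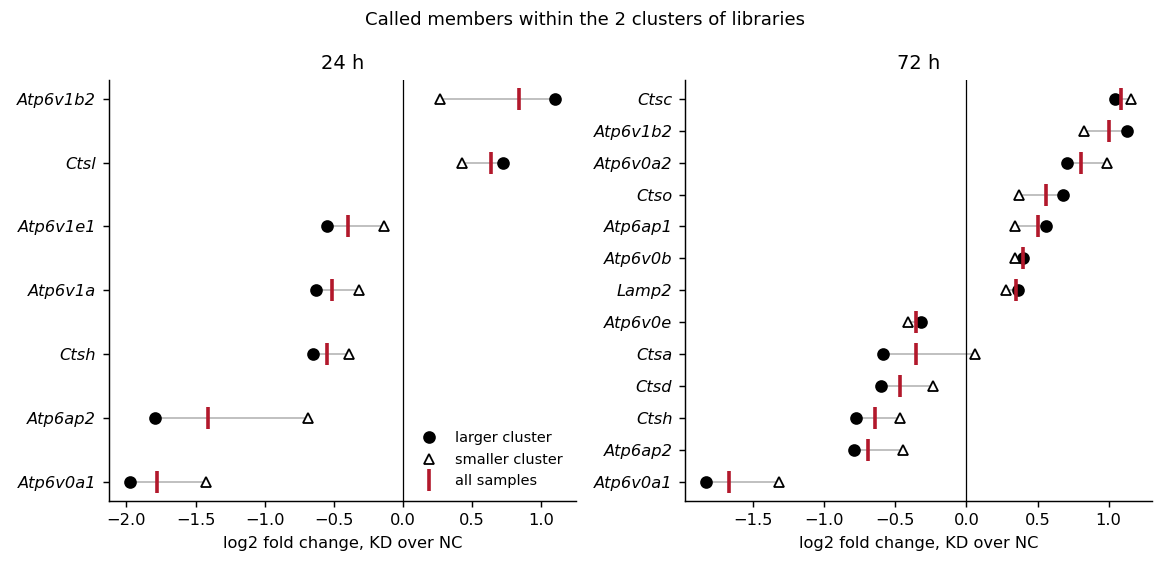
Log2 fold change of KD over NC for the called members within the larger cluster (filled circles), within the smaller cluster (open triangles) and over all samples (red bars), at 24 h on the left and 72 h on the right. Ctsa at 72 h is the gene whose markers lie on opposite sides of 0.

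The change of the KD effect from 24 h to 72 h was tested as an interaction in a fit of all samples. None of the 29 tested members passed in limma, against 0.281% of all genes with a protein-coding entry and 0.202% of all entries, and 7 had an unadjusted p under 0.05. With voom on recovered reads the count was also 0. The 7 included Ctsc (0.74 ± 0.23, adjusted p = 0.20), Atp6v1e1 (0.40 ± 0.13, adjusted p = 0.21), Ctsk (0.62 ± 0.21, adjusted p = 0.23), Atp6ap2 (0.73 ± 0.29, adjusted p = 0.31) and Atp6v0a2 (0.83 ± 0.34, adjusted p = 0.33). Genes called at a single time were therefore not shown to differ between the times. On the deposited scale Ctsc and Atp6v1e1 passed (0.92, adjusted p = 0.041, and 0.58, adjusted p = 0.024), beside 1.72% of all genes.

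In the control cells alone, several cathepsins rose between 24 h and 72 h. Of 29 tested members 8 changed, 7 higher and 1 lower at 72 h, or 27.6%, against 9.58% of all genes with a protein-coding entry and 9.15% of all entries (genes 5.17% higher and 4.41% lower). These NC samples also serve the knockdown comparisons, so the values are set side by side only. Ctsh rose by 0.73 ± 0.11 (adjusted p = 0.00093), Ctsa by 0.60 ± 0.10 (adjusted p = 0.0012), Ctsl by 0.59 ± 0.14 (adjusted p = 0.013) and Lamp2 by 0.42 ± 0.09 (adjusted p = 0.011). Ctsc fell by 0.96 ± 0.18 (adjusted p = 0.0037), from 19.9 ± 2.6 (SD, n = 6) to 10.5 ± 3.7 scaled RPKM (n = 5).

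Ctsk (0.54 ± 0.14, adjusted p = 0.026), Ctsd (0.26 ± 0.07, adjusted p = 0.021) and Atp6v1f (0.25 ± 0.07, adjusted p = 0.028) rose in the control cells as well, but each call was lost on leaving out single libraries. For Ctsk these were NC 24 h replicates 2, 3, 5 or 6 or NC 72 h replicates 2-3 or 6 (adjusted p from 0.054 to 0.076). For Ctsd they were NC 24 h replicates 5 or 6 or NC 72 h replicates 1, 2-3 or 6 (0.051 to 0.070), and for Atp6v1f NC 24 h replicates 4, 5 or 6 or NC 72 h replicates 1, 4 or 6 (0.053 to 0.069). Among the 14 tested V-ATPase subunits Atp6v1f was the only call, and Atp6v0a1 measured -0.16 ± 0.18 (adjusted p = 0.64). The count of members fell from 8 to 5 without NC 24 h replicate 5, NC 24 h replicate 6 or NC 72 h replicate 6. The share over all genes in those fits is not given here, so this fall is not read as a result about the members.

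Other lysosomal genes, 94 in 7 lists, served as the surroundings of the members. Of 79 tested at 24 h 8 changed, 3 higher and 5 lower, and of 80 tested at 72 h 11 changed, 7 higher and 4 lower. The shares of the main fit lay under the 24.1% and 23.6% of all genes with a coding entry. The count at 24 h fell to 4 without KD 24 h replicate 2 and to 5 without KD 24 h replicate 5, NC 24 h replicate 1 or NC 24 h replicate 6. The share over all genes in those fits is not given here, so the fall is not read as a result about these genes. On the deposited RPKM the count at 72 h was 26, 25 of them higher. There 31.3% of all genes with a coding entry were called, so the share at 72 h no longer lay under the background. Among 12 assembly and interacting proteins of the V-ATPase, Tcirg1 rose at both times and Rnasek, a small protein bound to the pump, at 72 h (0.32 ± 0.11, adjusted p = 0.046). The Rnasek call was lost on leaving out any of 10 libraries, all of KD 72 h or NC 72 h replicates 1, 2, 4 or 5 (adjusted p from 0.051 to 0.12).

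Among 36 other lysosomal hydrolases, 2 of 34 tested fell at 24 h, and of 35 tested at 72 h 3 rose and 3 fell. In the main fit both shares lay under the 24.1% and 23.6% of all genes with a coding entry. Glb1, the lysosomal galactosidase, fell by 0.73 ± 0.22 at 24 h (adjusted p = 0.029) and by 0.50 ± 0.16 at 72 h (adjusted p = 0.038), calls lost without any of KD 24 h replicate 2 and NC 24 h replicates 1, 3 and 6 at 24 h (0.053 to 0.067) and any of KD 72 h replicates 2 to 4 and NC 72 h replicates 1, 2-3 and 6 at 72 h (0.065 to 0.093). The phospholipase Pla2g15 fell by 0.69 ± 0.21 at 24 h (adjusted p = 0.032), a call lost without any of KD 24 h replicates 1, 2 and 5 and NC 24 h replicates 1, 2 and 4 (0.051 to 0.073). At 72 h Acp5, the tartrate-resistant acid phosphatase, fell by 1.14 ± 0.31 (adjusted p = 0.018). The galactosidase Gla rose by 0.81 ± 0.14, the sialidase Neu1 by 0.81 ± 0.20 (adjusted p = 0.0098) and the carboxypeptidase Scpep1 by 0.35 ± 0.10 (adjusted p = 0.018).

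Among regulators, 1 of 2 tested MiT/TFE factors was called at each time, as was 1 of 10 tested Ragulator, Rag and folliculin proteins. Over all genes with a coding entry 24.1% and 23.6% were called at these times. The counts are therefore not read as a result about the regulators. Of the MiT/TFE factors Mitf fell by 0.93 ± 0.24 at 24 h (adjusted p = 0.014) and Tfe3 rose by 0.72 ± 0.19 at 72 h (adjusted p = 0.016), while the list's other 2 genes were not tested. Of the Ragulator, Rag and folliculin proteins, which tie the pump to mTORC1, Fnip1 rose at 24 h (0.84 ± 0.24, adjusted p = 0.023) and Lamtor5 fell at 72 h (by 0.42 ± 0.09, adjusted p = 0.0040). Slc38a9, an arginine sensor of the lysosomal membrane, fell by 1.25 ± 0.35 at 24 h (adjusted p = 0.020) at under 2 scaled RPKM in every sample, and Laptm4b rose by 0.88 ± 0.20 at 72 h (adjusted p = 0.0060). Gnptab, which makes the mannose 6-phosphate tag for sorting, fell by 0.77 ± 0.22 at 24 h (adjusted p = 0.023). Cstb, the cytosolic inhibitor of cysteine cathepsins, rose by 0.33 ± 0.10 at 24 h (adjusted p = 0.023). The calls of Fnip1 (without KD 24 h replicate 1 or NC 24 h replicates 3 or 6), Slc38a9 (without NC 24 h replicate 1), Gnptab (without KD 24 h replicates 2 or 5 or NC 24 h replicate 2) and Cstb (without KD 24 h replicates 2 or 5 or NC 24 h replicates 5 or 6) were lost narrowly, at adjusted p from 0.050 to 0.054.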

How the data were processed

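Transcript levels were measured by bulk RNA barcoding and sequencing (BRB-seq), which primes with barcoded oligo-dT and reads 3′ ends. Per the study's methods, the authors mapped reads to NCBI reference sequences with the Genomatix suite and tested with DESeq2; the genome build of these libraries is not given in the sources used here. The deposited values are RPKM for 168326 overlapping transcript entries. Strand handling was not stated, so overlapping genes can share reads. Library totals were recovered from the steps of the values (91.3% of 22662 Ensembl lengths so found were within 1 base of GENCODE) and cover counting error only. In NC 72 h replicate 6 the step is ambiguous by a factor of 2, which leaves RPKM unchanged.

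An entry was tested when its level corresponded to 10 reads of a median-sized library in a number of samples no lower than the size of the smaller group, and to 15 reads in total. RPKM were scaled by a trimmed mean of log ratios (30% and 5% trimmed), and limma 3.58.1 (R 4.3.3; lmFit, eBayes with trend) was run on log2(scaled RPKM + 0.1), two-sided, with Benjamini-Hochberg adjustment over all entries tested. Fold changes are on this scale and understate changes of low genes. Levels are scaled over all samples together. The fit was checked on simulated data. The members and lists were chosen with earlier results of these data known. Values are given for up to 12 called members per comparison by size, for 16 fixed members and for up to 4 called genes per other list, of which 1 is not reported here. Sequences come from RefSeq (GRCm38.p6). Deviations of same-numbered libraries correlated at -0.22 to 0.2 between KD and NC and at -0.29 to 0.33 between the NC times, never all above 0.1 in a comparison, so the numbers do not pair the samples.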

Additional observations from a re-analysis of the deposited data

Results flagged for a closer look

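In 92 groups of samples of the 23 members described with values, 5 samples stood apart from the rest of their group, by a gap that makes up an unusually large part of the group's range. Chance alone flags about 5% of groups, which is close to this number. Atp6v0d1 measured 44.2 scaled RPKM in KD 24 h replicate 6, the shallowest library, against 18.9 to 28.2 in the other 5. Ctso measured 7.79 in KD 24 h replicate 5 against 3.67 to 5.05, and Ctsh 48.8 in KD 24 h replicate 2 against 37.7 to 41.6. In the control cells Ctsk measured 23.1 in NC 24 h replicate 1 against 14.4 to 17.3. Ctss measured 12.8 in NC 24 h replicate 6 against 1.40 to 4.13, in the library with the highest macrophage marker sum of its group.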

How the results depend on the processing

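Members called at 24 h numbered 7, and were between 7 and 10 with another pseudocount, no filter, no scaling, voom, 1 entry per symbol or a replicate block. The count was 1 in the smaller cluster, 11 with the cluster as a term (an alternative chosen after seeing the data) and 4 of 8 with Ensembl entries, which fewer members have. The 13 members of 72 h became 4 in the smaller cluster, 5 of 8 with Ensembl entries and 6 with a replicate block (Atp6v0a1, Atp6v0e, Atp6v1b2, Ctsc, Ctsd and Ctsh), although the replicate numbers do not pair the samples. Calls fell over all genes with a coding entry too. At 72 h 1000 of 9900 were called in the smaller cluster and 1505 of 9803 with the block, against 2316 of 9803 in the main fit. NC 72 h against NC 24 h gave 3 members of 8 with Ensembl entries, 5 without the filter, 5 with a replicate block and 3 in the smaller cluster, instead of 8. Over all genes that comparison gave 559 of 9482 with the block and 332 of 9558 in the smaller cluster, against 908 of 9482. The interaction gave 2 members on the deposited RPKM instead of 0. For Ensembl entries no share over all such entries is given here, so their counts are not read as a result about the members.

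Other lysosomal genes at 24 h numbered 4 without the filter, 3 with a replicate block and 0 in the smaller cluster in limma (11 at an unadjusted p under 0.05) instead of 8. Over all genes with a coding entry, 1653 of 9386 were called at 24 h with the block and 246 of 9425 in the smaller cluster, against 2265 of 9386. At 72 h they numbered 26 on the deposited RPKM, 6 with a replicate block and 7 in the smaller cluster instead of 11. Leaving out single libraries gave 7 to 13 members at 24 h, 10 to 13 at 72 h, 5 to 9 between NC times and 0 in the interaction, and 4 to 12 and 8 to 12 other lysosomal genes at 24 h and 72 h. Shares over all genes are not given for the fits without single libraries. Among named members, Ctsa at 72 h reversed in the smaller cluster (0.0594). The smaller cluster compares 2 samples with 2, and genes under about 10 reads per library were not tested, so changes of the rare isoforms were not detectable at this depth.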
